A study of Mus musculus with 18 samples.

Results

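Sarcomere structural genes, with the myosin heavy chains left out, were followed in the embryonic mouse palate. The members were 35 genes named by symbol: 5 myosin light chains, 5 genes of actin, tropomyosin and nebulin, 7 troponins, 6 genes of the thick filament and M-band, 9 genes of the Z-disc and desmin, and 3 assembly factors. They were listed by symbol and not by a measured value, but earlier results of these data were known when they were chosen. All 35 had a probe set annotated with that symbol alone, and the brightest such probe set over all 18 arrays stood for each gene. They are 35 of the 18193 genes measured in this way, and 13 of them had more than 1 probe set.

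Whole palate tissue of embryonic day 15.5 was hybridised to 18 Affymetrix arrays, 6 in each of 3 groups. Mutant posterior palate came from K14-Cre;Tgfbr2 fl/fl embryos, control posterior palate from Tgfbr2 fl/fl embryos without the recombinase, and control anterior palate from the same control genotype. All groups thus carried the floxed allele of Tgfbr2, a receptor for TGF-beta, although one label field calls the controls wildtype. All embryos are labelled C57BL/6J with gender not determined. The recombinase is under the K14 keratin promoter, which works in epithelia, so the deletion was aimed at epithelium and not at muscle. The design text names the interaction of palatal epithelium with myofibers as the question. It places mutants and controls in separate litters, and it counts 5 samples a group against 6 in the labels. Whether each sample came from a single embryo or from pooled ones is not given in the labels, so p-values measure only the spread between these samples, which may be technical.

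The sarcomere is the contractile unit of striated muscle. Thick filaments of myosin slide past thin filaments of actin, troponin and tropomyosin set the thin filament's response to calcium, and Z-discs and M-bands hold the filaments in register. Many of these proteins have slow-twitch, fast-twitch and heart isoforms coded by separate genes, and embryonic skeletal muscle uses some heart isoforms as well. The soft palate at the back of the mouth holds skeletal muscle, while the hard palate in front of it does not. In whole tissue, fewer muscle cells and less RNA per muscle cell cannot be told apart.

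Marker genes for the tissue were read first. Krt14, a keratin of basal epithelium, averaged 11.93, 12.22 and 12.87 (log2 value) in mutant posterior, control posterior and control anterior arrays. Myog, which drives muscle differentiation, averaged 10.82, 10.46 and 6.44 in the same order. The heart markers Nppa and Nkx2-5 averaged at most 3.78 and 5.66 in any group. Others on the heart list were brighter: Hand2 averaged 7.95, 7.90 and 7.23 in the same order, and Mybpc3 6.09, 6.09 and 5.96. Of the 10 heart markers 0 passed the test in either comparison, and 0 had an unadjusted p under 0.05 (limma). Labelling spike-ins averaged 7.23 to 8.91 on mutant arrays, against 9.46 to 11.11 on control posterior and 9.44 to 11.40 on control anterior arrays. Hybridisation spike-ins parted arrays 1 to 3 from arrays 4 to 6 within each group, at 11.38 to 11.91 against 10.67 to 10.78 in mutants and at 10.53 to 10.55 against 10.88 to 10.94 in control posterior arrays. Means of all probe sets were higher on mutant arrays 1 to 3 (6.35 to 6.37) than on mutant arrays 4 to 6 (6.28). Control arrays had means of 6.26 to 6.28. The labels name no batch. Because spike-in levels also parted all mutant arrays from all control arrays, genotype and this technical difference cannot be told apart. Mutants and controls came from separate litters, so genotype and litter cannot be told apart either.

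Sarcomere genes were far higher in posterior than in anterior control palate. Of the 35 members, 28 rose in control posterior arrays and 0 fell, where 1.70% of all genes were called higher and 2.12% lower (limma, Benjamini-Hochberg adjusted p under 0.05 across the 18193 genes). The median log2 difference of the members was 3.27, against -0.02 over all genes. For 31 members every control posterior array lay above every control anterior array, which held for 2.65% of all genes. The 7 members that did not pass were Actn3, Mybpc2, Myl2, Myoz1, Tpm1, Tpm2 and Xirp1. In control anterior arrays, 16 members averaged below the median of all probe sets, against 2 in control posterior arrays, so part of the anterior levels may be background.

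**Figure D1:**
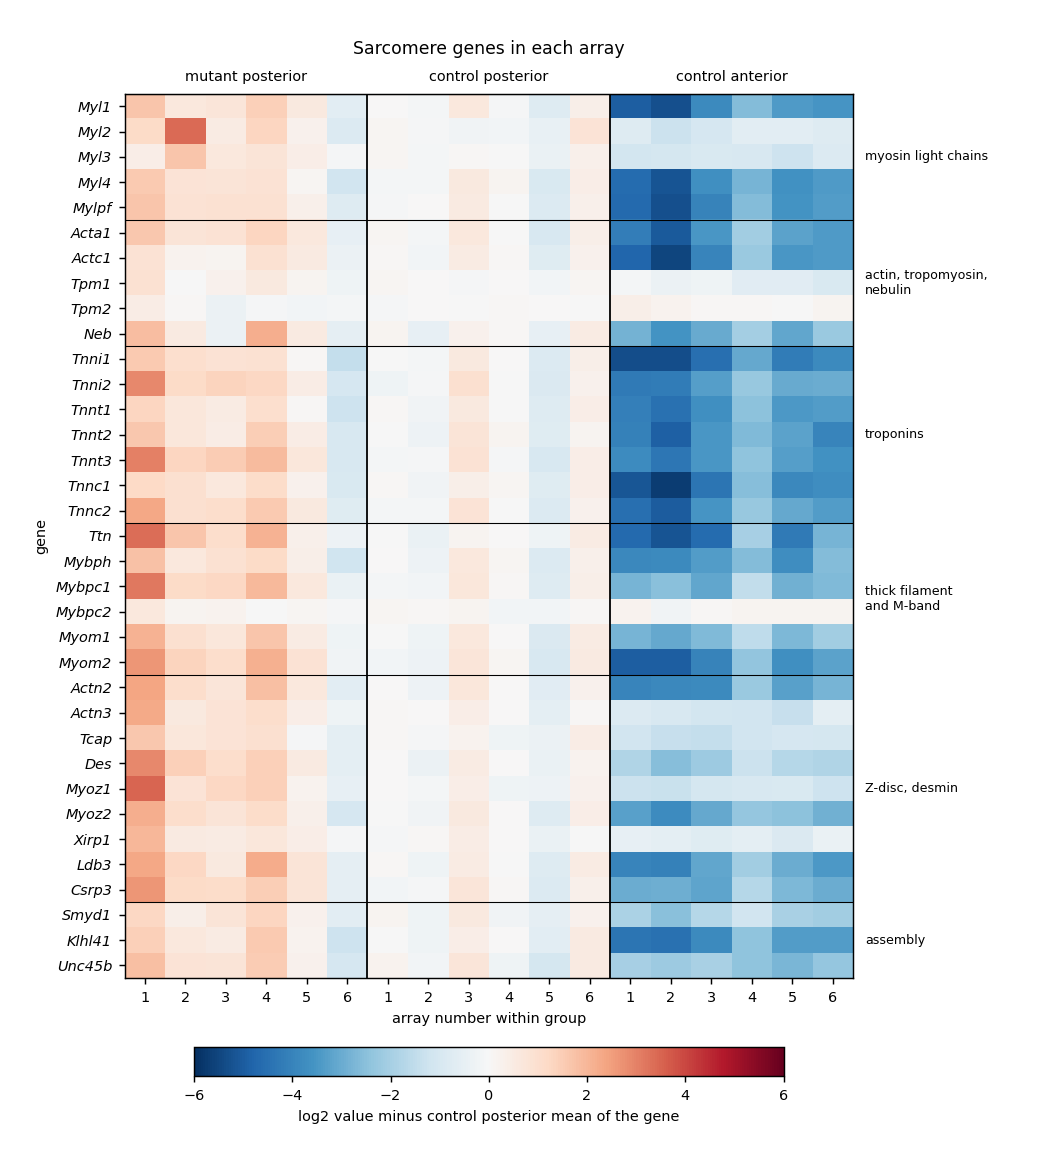
Each cell gives the log2 value of 1 gene (rows, by role) on 1 array (columns) minus that gene's control posterior mean, from blue (lower) through white to red (higher). The control anterior arrays are blue for nearly all genes, least so in array 4. Among mutant arrays, array 1 is highest for 29 of 35 genes and array 6 lowest for 34.

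Start-site sequences of the members were compared as well. RefSeq start-site windows (GRCm38.p6, 250 bases before to 50 after the start) were at hand for 27 of the 35 members, in 32 windows, among them Mybpc2, Myl2, Tpm1 and Tpm2, which did not pass by region. Motifs were searched on both strands, except TATAAA, which was searched on the gene's own strand alone. They were the E-box CANNTG, which myogenic factors such as MyoD bind, and its own subset CAGCTG. The others were the MEF2 motif, the CArG box bound by serum response factor, the sequence CATTCC bound by TEAD factors, and the TATA sequence TATAAA. An E-box (CANNTG) was found in 87.5% of the member windows and in 72.3% of all 32851 windows. CAGCTG was found in 43.8% of member windows, in 12 genes, and in 16.3% of all windows. The CArG box was found in 18.8% of member windows and 1.63% of all windows, in Acta1, Actc1, Ldb3, Myl3 and Myom1, and the pair of Ldb3 windows overlap. The MEF2 motif was found in 9.38% of member windows (Klhl41, Myoz2 and Ttn) and 3.19% of all. CATTCC was in 28.1% against 14.7%, and TATAAA in 9.38% against 8.32%. These letter matches are a description and show no binding.

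The windows of 5 genes are printed because they carry the matches beside large regional differences: both sarcomeric actins, a slow and a fast isoform gene, and Klhl41 with a MEF2 match. They are, from RefSeq on GRCm38.p6, Actc1 at chr2:114052826-114053125 (minus strand), Acta1 at chr8:123894726-123895025 (minus), Tnni1 at chr1:135799171-135799470 (plus, the first of its windows), Myl1 at chr1:66945007-66945306 (minus) and Klhl41 at chr2:69669870-69670169 (plus). Capitals mark CANNTG, CArG and MEF2 matches.
Actc1: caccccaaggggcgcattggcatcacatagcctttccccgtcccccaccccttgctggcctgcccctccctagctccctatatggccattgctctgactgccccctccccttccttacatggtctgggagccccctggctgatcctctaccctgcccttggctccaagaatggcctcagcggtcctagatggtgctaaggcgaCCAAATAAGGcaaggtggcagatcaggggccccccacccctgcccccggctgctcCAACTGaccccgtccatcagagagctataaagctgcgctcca
Acta1: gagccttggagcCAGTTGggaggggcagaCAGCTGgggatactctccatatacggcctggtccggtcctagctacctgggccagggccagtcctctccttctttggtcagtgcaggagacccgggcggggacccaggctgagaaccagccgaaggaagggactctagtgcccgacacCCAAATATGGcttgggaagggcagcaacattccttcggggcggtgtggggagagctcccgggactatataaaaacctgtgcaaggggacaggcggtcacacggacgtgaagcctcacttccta
Tnni1: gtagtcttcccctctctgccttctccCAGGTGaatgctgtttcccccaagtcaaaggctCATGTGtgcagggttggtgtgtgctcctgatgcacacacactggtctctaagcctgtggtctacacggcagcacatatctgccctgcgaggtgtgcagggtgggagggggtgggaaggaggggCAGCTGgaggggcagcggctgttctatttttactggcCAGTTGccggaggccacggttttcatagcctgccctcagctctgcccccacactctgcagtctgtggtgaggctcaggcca
Myl1: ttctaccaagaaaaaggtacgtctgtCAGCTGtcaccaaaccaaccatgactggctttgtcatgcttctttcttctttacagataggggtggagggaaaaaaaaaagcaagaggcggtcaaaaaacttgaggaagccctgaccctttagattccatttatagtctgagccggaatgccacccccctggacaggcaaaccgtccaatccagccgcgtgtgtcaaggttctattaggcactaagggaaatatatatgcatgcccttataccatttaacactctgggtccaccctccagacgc
Klhl41: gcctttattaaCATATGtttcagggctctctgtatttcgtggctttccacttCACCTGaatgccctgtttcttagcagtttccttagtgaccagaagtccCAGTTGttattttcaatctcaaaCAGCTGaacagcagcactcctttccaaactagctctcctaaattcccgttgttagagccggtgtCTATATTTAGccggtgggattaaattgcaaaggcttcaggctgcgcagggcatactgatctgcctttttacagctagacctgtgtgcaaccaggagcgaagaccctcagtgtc
The CArG box lies at bases -47 to -38 from the RefSeq start in Actc1 and at -73 to -64 in Acta1. TATAAA lies at 34 to 39 in Actc1 and at -7 to -2 in Acta1. Whether these starts are the ones used in palate was not tested. The MEF2 match of Klhl41 lies at -63 to -54. Tnni1 holds 4 E-boxes in this window, Klhl41 holds 4, Acta1 holds 2, and Actc1 and Myl1 hold 1 each.

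All 7 troponin genes rose in control posterior palate. Troponin I inhibits the actin-myosin contact, troponin T anchors the complex on tropomyosin, and troponin C binds calcium. Tnni1, the slow troponin I, showed the largest difference of all members: its values were 10.64, 11.47 and 12.08 (lowest, median, highest log2 value) in control posterior arrays, against 6.17, 7.12 and 8.39 in control anterior arrays. The groups did not overlap, and the difference was 4.37 ± 0.45 (SE), or 20.6-fold, with an adjusted p of 2.81e-05. Tnnc1, the troponin C of slow and heart muscle, had 10.76, 11.60 and 11.90 in control posterior arrays, against 5.79, 7.37 and 8.94 in control anterior arrays, a difference of 4.23 ± 0.44. Tnni2 and Tnnt3, the fast troponins I and T, differed by 3.34 ± 0.49 and 3.49 ± 0.49 on the log2 scale. Tnnt1 (slow), Tnnt2 (heart) and Tnnc2 (fast) differed by 3.58, 3.71 and 3.63. The groups of all 7 troponins did not overlap.

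The actins and most light chains showed the same separation. Actc1, the actin of heart and embryonic skeletal muscle, had 12.52, 13.31 and 13.72 in control posterior arrays, against 7.71, 9.51 and 10.99 in control anterior arrays. Acta1, the actin of mature skeletal muscle, averaged 12.10 ± 0.54 in control posterior arrays and 8.54 ± 0.98 in control anterior arrays (SD, n = 6 each). Neither gene's groups overlapped. The differences were 3.90 ± 0.40 for Actc1 and 3.56 ± 0.41 for Acta1, or 14.9-fold and 11.8-fold, and both passed the test. Neb, the giant ruler protein of the thin filament, differed by 2.81 ± 0.40.

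Light chains stabilise the neck of the myosin heavy chain and tune its motor. Myl1 (fast essential), Mylpf (fast regulatory) and Myl4 (embryonic and atrial) differed by 3.93, 3.91 and 3.88 on the log2 scale, 15.3-fold for Myl1 and 14.7-fold for Myl4. Myl3, the slow and ventricular essential chain, differed less: it had 6.72, 7.16 and 7.42 in control posterior arrays, against 5.88, 6.11 and 6.30 in control anterior arrays. Its groups did not overlap, the difference was 1.02 ± 0.20 and the adjusted p was 0.00682. Myl2, the slow and ventricular regulatory chain, had 5.72, 6.04 and 6.98 in control posterior arrays, against 4.89, 5.38 and 5.55 in control anterior arrays. These groups did not overlap either, but the difference of 0.85 ± 0.46 did not pass (adjusted p 0.313).

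Tropomyosins behaved apart from the rest. Tropomyosin winds along actin and blocks or frees the myosin sites, and Tpm1 and Tpm2 are also used by smooth muscle and other cells. Tpm1 averaged 12.07 ± 0.10 in control posterior arrays and 11.57 ± 0.30 in control anterior arrays (SD, n = 6 each), a difference of 0.50 with an adjusted p of 0.101. Tpm2 averaged 11.20 ± 0.04 in control posterior arrays and 11.35 ± 0.13 in control anterior arrays, a difference of -0.15. The result for Tpm2 hung on the probe set. Its most variable probe set, a dim one averaging 5.85, gave 0.81 with an adjusted p of 0.0491 (limma), and the mean of its probe sets 0.45. Brighter ones averaging 10.26 and 10.82 gave 1.10 (adjusted p 0.0451 over the named probe sets, limma) and 0.05. Of the smooth muscle markers, 1 of 8 rose in control posterior palate (Acta2, 1.26 ± 0.19), and their summed linear level was 4961 to 6987 in control posterior arrays, against 2702 to 3693 in control anterior arrays. Their part in the tropomyosin values was not tested.

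Of the thick filament and M-band genes, 5 of 6 rose. Titin is the elastic filament that spans the sarcomere from Z-disc to M-band. Ttn had 8.82, 9.23 and 9.75 in control posterior arrays, against 4.06, 4.81 and 7.26 in control anterior arrays, where array 4 stood highest. The difference was 3.91 ± 0.56 with an adjusted p of 0.000389. Its 6 probe sets gave log2 differences between 0.08 and 3.91, the dimmest ones the smallest. Myom2 and Myom1, the myomesins that crosslink myosin in the M-band, differed by 3.86 ± 0.48 and 2.47 ± 0.35. Mybpc1 and Mybph, of the myosin binding protein C family, differed by 2.58 ± 0.43 and 3.33 ± 0.39. Mybpc2, the fast form, averaged 4.90 ± 0.14 in control posterior arrays, against 4.99 ± 0.16 in the anterior ones (SD, n = 6 each), below the median of all probe sets in both.

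Of the Z-disc genes and desmin, 6 of 9 rose. Actn2, the alpha-actinin that crosslinks thin filaments, differed by 3.32 ± 0.41, and Ldb3, which binds it, by 3.27 ± 0.42. Myoz2 and Csrp3, a calsarcin and the muscle LIM protein, differed by 2.97 and 2.75. Des, which codes for the intermediate filament that ties Z-discs together, had 8.39, 8.82 and 9.27 in control posterior arrays, against 6.22, 6.99 and 7.49 in control anterior arrays, a difference of 1.89 ± 0.39. Tcap, the titin cap, differed by 1.19 ± 0.27. Actn3 (1.00, adjusted p 0.0634) and Myoz1 (1.14, adjusted p 0.144), both of fast fibers, did not pass although their groups did not overlap. Xirp1, an actin-binding repeat protein, differed by 0.61 (adjusted p 0.159).

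All 3 assembly factors rose in control posterior palate. Klhl41, which stabilises nebulin and thin filaments, differed by 3.62 ± 0.41. Unc45b, the myosin chaperone, differed by 2.26 ± 0.38, and Smyd1, a methyltransferase needed for myofibril assembly, by 1.89 ± 0.29. A second Smyd1 probe set gave 3.71, while the 4 others gave -0.05 to 0.30. With arrays 4 to 6 of each group alone, 8 members passed instead of 28, against 0.407% of all genes called higher, and with arrays 1 to 3 alone, 26, against 0.577%. With equal-numbered control arrays taken as pairs, which is an assumption, 33 rose, against 6.00% of all genes. The 8 were Actc1, Myl1, Myl4, Mylpf, Tnnc1, Tnni1, Tnnt1 and Tnnt2, and the median difference of the members in those arrays was 2.55.

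Other genes of the contractile apparatus were read from lists. Among 8 striated myosin heavy chain genes, 4 rose in control posterior palate: Myh3 (embryonic) by 4.32, Myh8 (perinatal) by 4.03, Myh7 (slow) by 2.82 and Myh1 (fast) by 2.40 on the log2 scale. Among 22 other sarcomere and Z-disc genes, 8 rose and 0 fell, led by Synpo2l (3.40), Myot (3.37), Lmod3 (3.16) and Klhl40 (2.30). Over all genes 1.70% were called higher. Of 11 measured muscle regulators, 5 rose, and their summed linear level was 4175 to 6329 in control posterior arrays, against 2273 to 2807 in control anterior arrays.

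In mutant posterior palate nearly all sarcomere genes had a positive difference, but the arrays overlapped and 1 difference passed. Of the 35 members, 1 rose (Myl3) and 0 fell in mutant posterior against control posterior arrays, where 7.73% of all genes were called higher and 5.73% lower. The median log2 difference of the members was 0.70, against 0.04 over all genes. The difference was positive for 34 of 35 members, all but Tpm2, and for 58.3% of all genes. An unadjusted p under 0.05 was reached by 14 of 35 members and by 28.0% of all genes. For 0 of 35 members did the groups part completely, which happened for 6.55% of all genes.

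**Figure D2:**
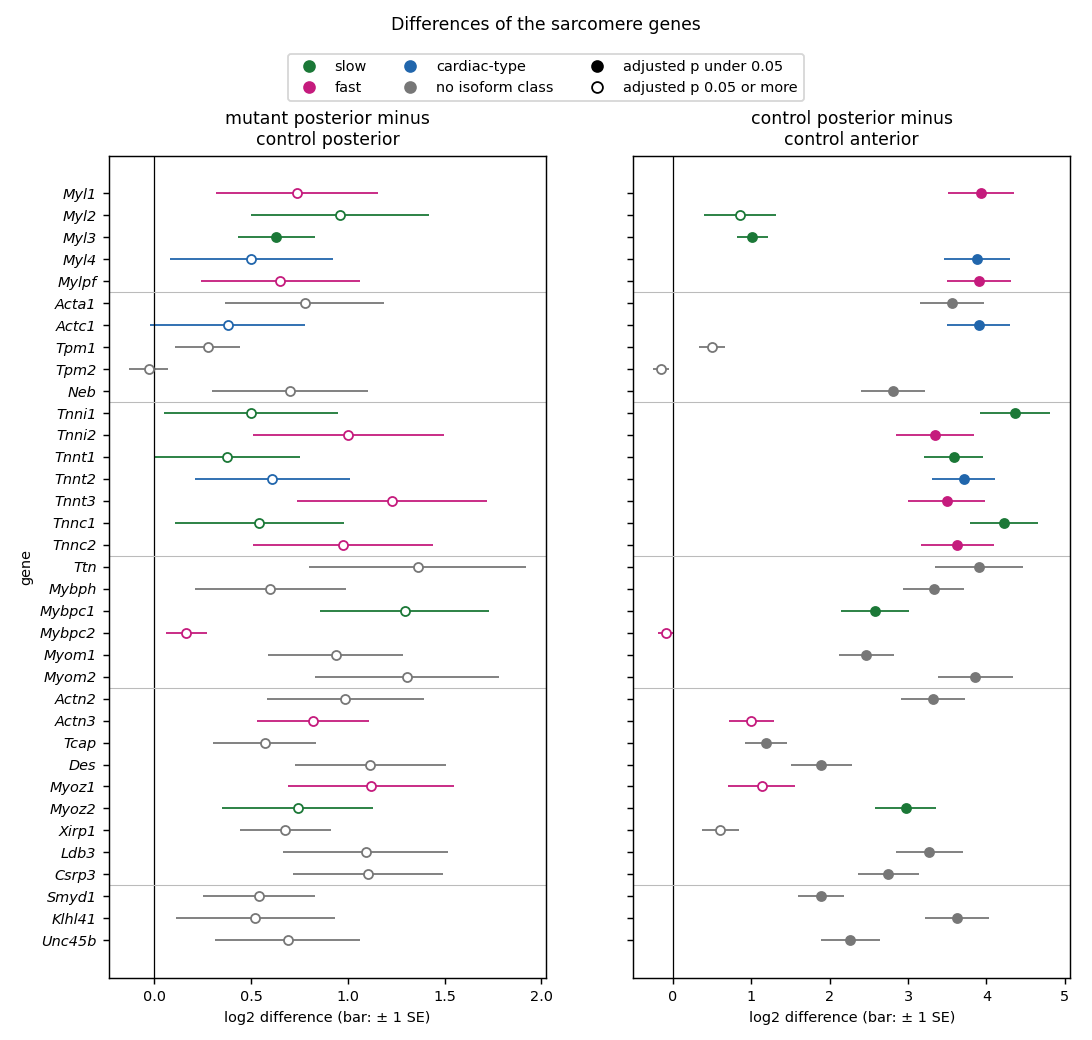
Points are the log2 differences of each gene with bars of ± 1 SE, mutant posterior minus control posterior on the left and control posterior minus control anterior on the right (the axes differ in range), coloured by isoform class. Filled points passed an adjusted p of 0.05: 1 gene (Myl3) on the left and 28 on the right.

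Mutant arrays differed widely among themselves. The median SD of the members was 1.00 in mutant posterior arrays, against 0.458 in control posterior arrays and 0.591 in control anterior arrays, on the log2 scale. Over all genes the median SDs were 0.233, 0.128 and 0.152. Averaged over the 35 members, mutant arrays 1 to 6 gave 11.04, 10.07, 9.88, 10.44, 9.54 and 8.51, against 8.52 to 9.64 in control posterior arrays. Mutant array 1 was above every control posterior array for all 35 members. Mutant array 6 was below the control posterior mean for all 35, and below every control posterior array for 18. Arrays 2, 3 and 4 exceeded every control posterior array for 30, 28 and 33 members, and array 5 did so for 9.

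Other cell markers differed on the same arrays. The muscle regulators averaged 9.11, 8.55, 8.31, 9.21, 8.52 and 7.68 on mutant arrays 1 to 6, against 7.90 to 8.56 on control posterior arrays. Of the 11 measured, 4 rose in mutant posterior palate (Myf6, Mef2c, Mef2a and Mef2d) and 1 fell (Six4, -1.48 ± 0.44). Over all genes 7.73% were called higher and 5.73% lower. The 12 epithelial markers averaged 9.24 on mutant array 1, against 11.19 to 12.03 on the other mutant arrays and 11.38 to 11.81 on control posterior arrays, and their summed linear level was 11544 on mutant array 1, against 38515 to 64982 on the other mutant and 39730 to 54724 on control posterior arrays. Cdh1, the epithelial cadherin, had its lowest value of any mutant array at 8.25. Smooth muscle markers summed to 3822 to 10424 in mutant and 4961 to 6987 in control posterior arrays, with 1 of 8 called higher, and heart markers to 314 to 1192 and 471 to 612. Hand2, the brightest heart marker, spanned log2 values of 4.74 to 9.75 in mutant and 7.61 to 8.33 in control posterior arrays, and weighs most in these sums. Of 12 epithelial markers 0 passed in either comparison, with 2 at an unadjusted p under 0.05 in each (limma). RMA gave every marker a value above 0.

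Markers of connective tissue, blood and nerve differed too. In mutant posterior palate 4 of 7 tendon, 2 of 7 cartilage and bone and 1 of 8 mesenchyme markers rose and 0 fell, while 1 of 5 blood and 1 of 6 immune markers rose and 2 of each fell. Of 4 nerve and glia markers, 1 rose. The shares over all genes were 7.73% called higher and 5.73% lower. Summed linear levels of the tendon markers were 5744 to 10841 in mutant and 3758 to 5725 in control posterior arrays, and those of the blood markers 1472 to 4857 and 6645 to 12394, in both cases without overlap. Mutant array 6 had the highest mutant sums of mesenchyme markers (58132, against 29017 to 37171 in control posterior arrays) and of cartilage and bone markers (25414, against 7717 to 11735). Its nerve and glia markers had the lowest mean of the mutant arrays, 6.10, against 7.88 to 8.41 in control posterior arrays. The part of these cell types in the differences was not tested.

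**Figure D3:**
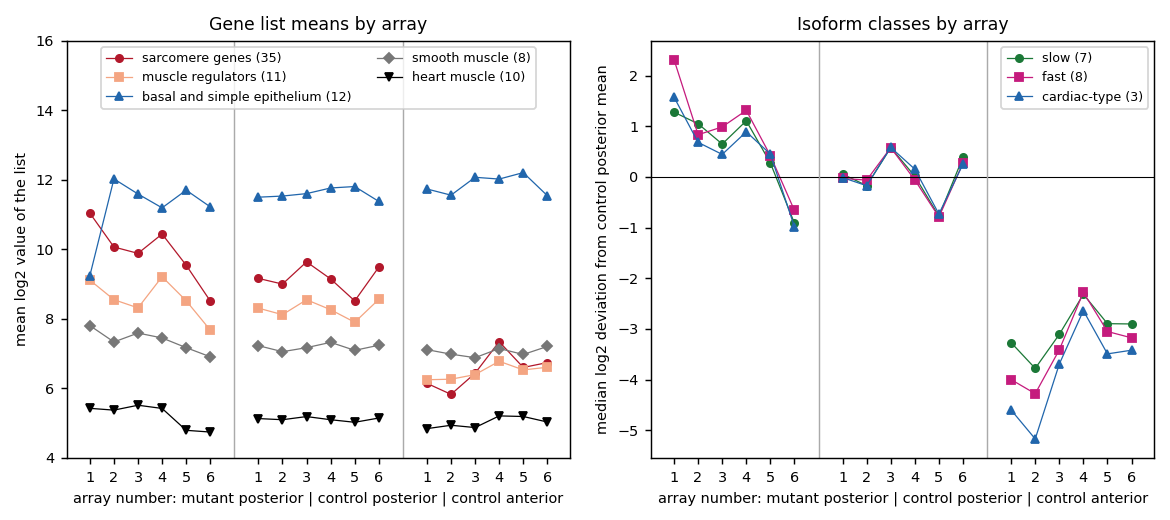
The left panel gives the mean log2 value of 5 gene lists on each array and the right panel the median deviation of slow, fast and cardiac-type members from their control posterior means (log2), for mutant posterior, control posterior and control anterior arrays in turn. The sarcomere mean is 11.04 on mutant array 1 and 8.51 on mutant array 6, while the epithelial mean is lowest on mutant array 1.

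The genotype result turned on mutant array 6. Without it, 21 of 35 members rose, against 8.96% of all genes called higher, and the median difference was 1.01. With mutant arrays 1 to 3 alone, the same 21 members rose, against 17.9% of all genes. With mutant arrays 4 to 6 alone, 0 passed (limma), against 7.82% of all genes, and 1 of 35 members had an unadjusted p under 0.05. Leaving out array 1 gave 1 call, against 6.67% of all genes, and a median of 0.47. Leaving out both arrays 1 and 6, a setting added after the data were seen, gave 11 calls, all of them among the 21, against 7.11% of all genes, and a median of 0.81. Array 6 was the lowest mutant array for 34 of 35 members, so leaving it out raised the mutant mean of nearly all by construction. The make-up of the 21 is therefore a description. By role, the 21 were 9 of 9 Z-disc genes and desmin, 5 of 6 thick filament and M-band genes, 3 of 7 troponins, 2 of 5 light chains, 2 of 3 assembly factors and 0 of 5 genes of actin, tropomyosin and nebulin. By isoform class they were 4 of 7 slow, 5 of 8 fast and 0 of 3 cardiac-type genes. The 11 left without arrays 1 and 6 were 8 of 9 Z-disc genes and desmin and 1 each of the thick filament genes, troponins and light chains, or 2 of 7 slow, 3 of 8 fast and 0 of 3 cardiac-type genes. The cause of array 6's low values was not tested.

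Myl3 was the 1 member called with all arrays. Its values were 7.03, 7.66 and 8.78 (lowest, median, highest) in mutant posterior arrays, against 6.72, 7.16 and 7.42 in control posterior arrays. Mutant array 6 lay within the control range and the 5 others above it, and the difference was 0.63 ± 0.20, or 1.55-fold, with an adjusted p of 0.0447. The call was lost (adjusted p 0.0585 to 0.109) when any of control posterior arrays 1 to 5 or mutant arrays 3 or 4 was left out. In all it was lost in 17 of 28 alternative fits, among them the mean of probe sets and the most variable probe set. The other Myl3 probe sets gave 0.98 and 0.69 and did not pass (adjusted p 0.0915 and 0.0556 over the named probe sets, limma). Myl2 averaged 7.12 ± 1.41 in mutant posterior arrays and 6.17 ± 0.44 in control posterior arrays (SD, n = 6 each), the widest mutant spread of the 35 members. Its highest value, 9.55, stood on mutant array 2. Myl1, Mylpf and Myl4 differed by 0.74, 0.65 and 0.50, and none of these passed.

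The 3 largest differences were those of the thick filament and M-band genes Ttn, Myom2 and Mybpc1. Ttn had 8.93, 10.60 and 12.59 in mutant posterior arrays, against 8.82, 9.23 and 9.75 in control posterior arrays. The upper mutant arrays lay above the control range, and the difference was 1.36 ± 0.56 (adjusted p 0.118). A pair of dimmer Ttn probe sets gave 1.68 and 1.84 and passed over the named probe sets (adjusted p 0.0353 and 0.0340, limma). Dimmer ones of Ldb3 (1.54 and 0.92) and Myom2 (1.09) passed too. The remaining dimmer probe sets of Ttn (1.24, 0.92 and 0.01) and Myom2 (1.04 and 0.35) did not pass. These were picked from 67 member probe sets and are a description. Myom2 differed by 1.31 ± 0.48 (adjusted p 0.0782). Mybpc1 had 7.80, 9.37 and 11.35 in mutant posterior arrays, against 7.40, 8.14 and 8.86 in control posterior arrays, a difference of 1.29 ± 0.43 that missed the threshold (adjusted p 0.0563). Myom1, Mybph and Mybpc2 differed by 0.94, 0.60 and 0.16. All of these but Mybpc2 were called without mutant array 6, and without mutant arrays 1 and 6 Mybpc1 alone was.

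Z-disc genes and desmin differed by similar amounts. Their 9 log2 differences lay between 0.57 (Tcap) and 1.12 (Myoz1 and Des). An unadjusted p under 0.05 (limma) was reached by 8 of 9, against 28.0% of all genes. Des averaged 9.91 ± 1.14 in mutant posterior arrays and 8.79 ± 0.33 in control posterior arrays (SD, n = 6 each). The mutant range enclosed the control range, and the adjusted p was 0.0643. Csrp3, Ldb3 and Actn2 differed by 1.11, 1.09 and 0.99. Actn3 (0.82), Myoz2 (0.74) and Xirp1 (0.68) lay lower.

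Actin, tropomyosin and nebulin genes and assembly factors had the smallest median differences among the roles, 0.38 and 0.54. Acta1 had 11.59, 12.93 and 13.70 in mutant posterior arrays, against 11.15, 12.15 and 12.75 in control posterior arrays, a difference of 0.78 ± 0.41. Actc1 had 12.86, 13.60 and 14.13 in mutant posterior arrays, against 12.52, 13.31 and 13.72 in control posterior arrays, a difference of 0.38 ± 0.40. Neb and Tpm1 differed by 0.70 and 0.27, and Tpm2 by -0.03, with its most variable probe set, a dim one, at 0.71 (adjusted p 0.0323, limma). The other bright probe sets of Tpm2 gave -0.44 and -0.15 and did not pass. Unc45b, Smyd1 and Klhl41 differed by 0.69, 0.54 and 0.52.

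Among troponins the fast genes had the larger differences. Tnnt3 had 8.25, 10.63 and 12.25 in mutant posterior arrays, against 8.27, 9.16 and 10.09 in control posterior arrays, a difference of 1.23 ± 0.49 (adjusted p 0.106). Tnni2 and Tnnc2, the other fast troponins, differed by 1.00 ± 0.49 and 0.98 ± 0.47. Tnni1, Tnnc1 and Tnnt1, the slow ones, differed by 0.50 ± 0.45, 0.54 ± 0.44 and 0.38 ± 0.38. Tnnt2, the heart form, differed by 0.61 ± 0.40. Without mutant array 6, the 3 fast troponins were called and the 4 others were not, and without mutant arrays 1 and 6 Tnnt3 alone of the 7 was called. With all arrays 0 of the 7 passed (limma), and 1 had an unadjusted p under 0.05, against 28.0% of all genes.

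Other contractile genes were read for genotype too. Of 8 heavy chain genes 0 passed (limma), 2 had an unadjusted p under 0.05, and Myh8 had the largest difference at 1.37 ± 0.51 (adjusted p 0.0818). Of 22 other sarcomere and Z-disc genes, 3 rose in mutant posterior palate: Fhl1 by 0.99, Flnc by 0.83 and Nrap by 0.81 on the log2 scale. Among all genes, 7.73% were called higher and 28.0% had an unadjusted p under 0.05 (limma). These counts in small lists are a description.

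Isoform classes were set side by side next. By region, 6 of 7 slow genes, 5 of 8 fast genes and 3 of 3 cardiac-type genes rose in control posterior palate, with median log2 differences of 2.97, 3.42 and 3.88. By genotype, 1 of 7 slow, 0 of 8 fast and 0 of 3 cardiac-type genes rose in mutant posterior palate, with medians of 0.63, 0.90 and 0.50, and 2, 3 and 0 of them had an unadjusted p under 0.05 (limma). Over all genes, 1.70% were called higher by region and 7.73% by genotype. The share with an unadjusted p under 0.05 by genotype was 28.0% (limma). The classes hold different proteins and probe sets, so their medians are a description. A direct comparison used 11 pairs of isoforms of the same or a related protein. The log2 value of the first isoform minus that of the second was taken on each array, and this difference was compared between groups by a 2-sided exact permutation test over arrays, adjusted over the 22 comparisons. Such a difference is not a ratio of transcript amounts, since the probe sets differ. Its shift between groups measures an unequal change of both probe set values. Probe sets of the same gene also changed unequally. By region, those of Tnni2 gave 3.34, 2.44 and 0.45, and those of Myl3 gave 1.02, 2.12 and 0.97. The part of probe response and dim levels in the shifts was not tested.

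**Figure D4:**
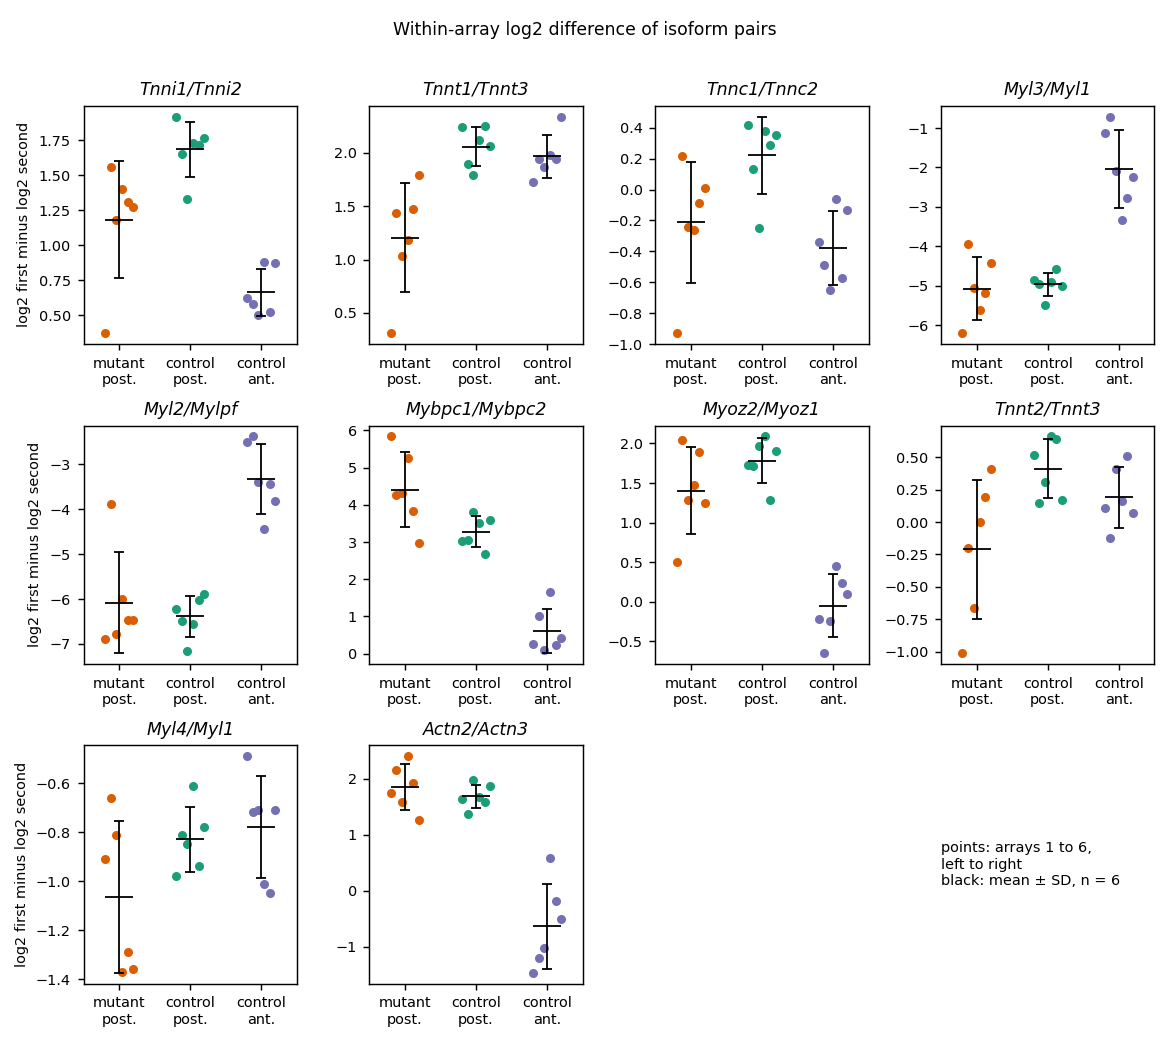
Each of 10 panels gives the log2 value of the first gene minus that of the second on every array, with black bars for the mean ± SD (n = 6) of mutant posterior, control posterior and control anterior arrays. Tnni1/Tnni2 lies higher in control posterior than in control anterior arrays without overlap, and Tnnt1/Tnnt3 lies lower in mutant posterior than in control posterior arrays with 1 array overlapping.

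By region, 8 of 11 pairs passed. Tnni1/Tnni2 had 1.33, 1.72 and 1.92 (lowest, median, highest) in control posterior arrays, against 0.50, 0.60 and 0.88 in control anterior arrays. The groups did not overlap, and slow over fast troponin I was higher by 1.02 ± 0.11 (adjusted p 0.00794 by the exact permutation test). Tnnc1/Tnnc2 was higher by 0.60 ± 0.14 (adjusted p 0.0159, exact permutation test), at -0.25, 0.32 and 0.42 in control posterior arrays, against -0.65, -0.42 and -0.06 in control anterior arrays. Tnnt1/Tnnt3 differed by 0.09 ± 0.11 and Tnnt2/Tnnt3 by 0.22 ± 0.13, and neither passed. With the brightest probe sets, values of slow troponins I and C were thus higher relative to the fast ones in control posterior palate. A shift of troponin T was not detected with these probe sets.

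Light chains shifted the other way. Myl3/Myl1 was lower by 2.92 ± 0.42 on the log2 scale and Myl2/Mylpf by 3.06 ± 0.37 in control posterior than in control anterior arrays, both with an adjusted p of 0.00794 by the exact permutation test and with groups that did not overlap. Behind these stand the differences of 3.93 and 3.91 for the fast chains Myl1 and Mylpf and of 1.02 and 0.85 for the slow chains Myl3 and Myl2. Myl4/Myl1 differed by -0.05 and did not pass. Mybpc1/Mybpc2, Actn2/Actn3 and Myoz2/Myoz1 were higher by 2.67, 2.32 and 1.83, each without overlap. In control anterior arrays, Myl2, Mybpc1, Mybpc2, Myoz1 and Myoz2 averaged below the median of all probe sets. The shifts of Myl2/Mylpf, Mybpc1/Mybpc2 and Myoz2/Myoz1 thus rest on dim values, and the part of background in them was not tested.

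Brightness and pairing limit the regional pairs. Both probe sets averaged above the median of all probe sets in both groups for 6 of 11 pairs, and 5 of these 6 passed, all but Myl4/Myl1. Myl2/Mylpf, Mybpc1/Mybpc2 and Myoz2/Myoz1 passed too, but with a probe set below that median in at least 1 group. Tnnt1/Tnnt3 and Tnnt2/Tnnt3 also had such a probe set and did not pass. Equal replicate numbers were taken to pair the control arrays, which is an assumption, and with sign flips within numbers 0 of 11 passed. With 6 pairs of arrays no exact p can be under 0.03125, and the smallest adjusted value was 0.0764. The choice of probe set also moved the size of several regional shifts. With the mean of each gene's probe sets, Tnni1/Tnni2 was 2.29, Mybpc1/Mybpc2 1.27, Myl4/Myl1 -1.88 and Tnnt2/Tnnt3 -0.92, all past the threshold (adjusted p 0.00595, exact permutation test). With the most variable probe set, Myl3/Myl1 was -1.81 (adjusted p 0.00794) and Tnnt2/Tnnt3 0.49 (adjusted p 0.0397, both by the exact permutation test). The regional calls of Tnnt2/Tnnt3 and Myl4/Myl1, and the direction of Tnnt2/Tnnt3, thus depended on the probe sets used.

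By genotype, 3 of 11 pairs passed. In each, the value of the slow or heart isoform was lower relative to the fast one in mutant posterior arrays. Of these, Tnnt1/Tnnt3 and Tnnt2/Tnnt3 subtract the same Tnnt3 values, so they are not separate results. Tnnt1/Tnnt3 gave 0.31, 1.44, 1.03, 1.18, 1.47 and 1.79 on mutant arrays 1 to 6, against 2.24, 1.90, 1.79, 2.12, 2.25 and 2.06 on control posterior arrays 1 to 6. All mutant arrays but array 6 lay below every control posterior array. The difference was -0.85 ± 0.22 (adjusted p 0.0136, exact permutation test), and it passed without any single array. Within arrays 1 to 3 it was -1.05 and within arrays 4 to 6 -0.66, where 3 arrays against 3 allow no exact p under 0.1.

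Tnni1/Tnni2 gave 0.37, 1.56, 1.18, 1.40, 1.31 and 1.27 on mutant arrays, against 1.92, 1.65, 1.33, 1.73, 1.72 and 1.77 on control posterior arrays. The difference was -0.50 ± 0.19 (adjusted p 0.0159, exact permutation test). It was -0.32 without mutant arrays 1 and 6 together, where the adjusted p of the exact permutation test was 0.0564. With the mean of probe sets, 1 of which averaged 3.72 for Tnni2, it was -0.15 with an adjusted p of 0.496 in the same test.

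Tnnt2/Tnnt3 gave -1.01, -0.10 and 0.41 (lowest, median, highest) on mutant arrays, against 0.15, 0.42 and 0.66 on control posterior arrays. The difference of -0.62 ± 0.24 passed with all arrays (adjusted p 0.0433, exact permutation test) but not without any of mutant arrays 1 to 4 or any control posterior array (adjusted p 0.0524 to 0.104), and with the mean of probe sets it was -0.86 (adjusted p 0.0506, exact permutation test). Tnnc1/Tnnc2 (-0.43) pointed the same way and missed the threshold, with an adjusted p of 0.0578 in the exact permutation test. Mybpc1/Mybpc2 was higher by 1.13 with the same adjusted p, although Mybpc2 lay near the low end of the range, and passed at 0.82 with the mean of probe sets (adjusted p 0.0303, exact permutation test). The pairs of light chains, Myoz2/Myoz1 and Actn2/Actn3 differed by -0.38 to 0.31 and did not pass.

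The comparisons by region and by genotype share the control posterior arrays, so their signs are not independent. Tnni1/Tnni2 averaged 1.18 ± 0.42 in mutant posterior arrays, against 1.69 ± 0.20 in control posterior and 0.66 ± 0.17 in control anterior palate (SD, n = 6 each). Tnnt1/Tnnt3 averaged 1.20 ± 0.51, 2.06 ± 0.18 and 1.97 ± 0.20 in the same order.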

How the data were processed

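The deposited values are log2 expression values made by the authors with RMA per the submitters' processing notes, which is a background correction, a quantile normalization between arrays and a summary of each probe set, and 45101 probe sets were used as deposited. The version of RMA is not given in the sources used here, and detection calls were not used, so dim values may be background. Quantile normalization would hide a change that most genes share. The number of arrays limits the precision. Names came from the platform annotation table: 34945 probe sets had 1 symbol, 932 several and 9160 none, and 64 were controls. Symbols were checked through Entrez numbers against a RefSeq table, where 18032 of 18193 genes matched.

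Groups and replicate numbers came from sample titles. One limma fit (3.58.1, R 4.3.3, lmFit and eBayes) over 3 groups had 15 residual degrees of freedom. A gene was called at a 2-sided adjusted p (Benjamini-Hochberg, 18193 genes) under 0.05. Isoform pairs were tested by exact permutation over arrays, where 6 against 6 gives no p under 0.0021645. The values of 1 of the 11 pairs are not reported here. Equal numbers correlated above 0.1 in all 6 control pairs (0.111 to 0.430 across genes), but in 2 of 6 mutant and control pairs, so numbers were taken to pair control arrays only. This pairing comes from the data, and arrays of unequal number were not correlated. Arrays 1 to 3 and 4 to 6 also differed in spike-ins, so these correlations cannot show pairing by number.

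On data simulated for 18193 genes, the fit recovered 54% of changes of 0.5 log2 units and 90% of changes of 1 by region, and 66% and 96% by genotype, with 3.95% and 6.28% of calls false. The changes were put into genes drawn at random, with independent noise and the same SD in every group. The members varied more, with a median SD of 1.00 in mutant posterior arrays against 0.233 over all genes. They also moved together across arrays, so these rates do not give the power for the members. The members, lists, pairs and named genes were chosen with earlier results of these data known. All 35 members are named, with up to 4 called heavy chain or other sarcomere genes of largest change per comparison and a few marker genes. Myh8 was named for genotype after its values were seen. Alternatives were other probe set rules, a filter on dim genes, other scalings and variance models, array sets, replicate blocks, thresholds and leaving out arrays. Software was Python 3.11.15 and matplotlib 3.10.9.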

Additional observations from a re-analysis of the deposited data

Results flagged for a closer look

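In 6 of 138 groups of values, an array stood far from the other 5 of its group, by a gap wide relative to the group's range. Chance marks about 5% of such groups. Both Mybpc1 and Csrp3 stood out in control anterior array 4: Mybpc1 was highest there at 6.69, against 5.07 to 5.67 on the others, and Csrp3 at 7.48, against 6.04 to 6.49. Mybpc2 was lowest on control anterior array 2 at 4.68, against 4.98 to 5.10. Actn3 was lowest on control posterior array 5 at 6.92, against 7.51 to 7.87. Among isoform pairs, Tnni1/Tnni2 was lowest on mutant posterior array 1 at 0.37, against 1.18 to 1.56, and Myl2/Mylpf was highest on mutant posterior array 2 at -3.88, where the lowest of the group was -6.88.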

How the results depend on the processing

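By region, the count of 28 members called higher stayed within 1.5 times itself in 24 of 25 alternatives and was 28 in each fit that left out 1 array. The exception was arrays 4 to 6 of every group, with 8. The 8 isoform pairs past the threshold became 0 with sign flips within equal replicate numbers (a replicate block), where the smallest exact p is 0.03125 by construction, and 5 among pairs bright in both groups. Leaving out 1 array gave 7 to 8. Signs turned for Tpm2 (0.45 with the mean of probe sets, 0.81 with the most variable one), Mybpc2 (0.0825 with arrays 1 to 3), Tnnt2/Tnnt3 (-0.92 with the mean of probe sets) and Myl4/Myl1 (-0.103 to 0.00767 when 1 array was left out).

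By genotype, the count of 1 member was 3 with the mean of probe sets and with arrays 1 to 3 of every group, 2 with a filter on dim genes and with array weights, and 0 with the 2 groups alone, the replicate block, 4 array sets as a random block, arrays 4 to 6, a threshold of 0.01, a 2-fold minimum, mutant arrays 4 to 6 only, control arrays 1 to 3 only and control arrays 4 to 6 only. It was 21 with mutant arrays 1 to 3 only, 11 without mutant arrays 1 and 6, and 0 to 21 when 1 array was left out. The replicate block rests on numbers that were not taken to pair these arrays. The 3 isoform pairs became 0 with sign flips in a replicate block and 2 to 5 when 1 array was left out, with 5 without mutant array 6. Signs turned for Tpm1 (-0.0915) and Tpm2 (0.0226) with the mean of probe sets, for Tpm2 also with the most variable one (0.71), arrays 1 to 3 (0.0750), mutant arrays 1 to 3 only (0.0508) and when mutant array 3 was left out (0.0343), and for Myl4 (-0.0440), Tnni1 (-0.15) and Tnnt1 (-0.0572) with mutant arrays 4 to 6 only. Myl3/Myl1 turned to 0.0312 with the mean of probe sets, 0.25 with the most variable one, 0.0158 without mutant arrays 1 and 6 and -0.33 to 0.12 when 1 array was left out, and Myl2/Mylpf spanned -0.13 to 0.47 there. Median centring moved the median of all genes to 0.06 by region, against -0.02, and to -0.01 by genotype, against 0.04. The causes were not tested. Dim anterior levels limit regional folds.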
